A study of Mus musculus with 8 samples.

Results

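Adipogenic regulators and lipid droplet genes were examined in cultured mouse tail tendon fibroblasts with and without scleraxis (Scx), a tendon transcription factor of the basic helix-loop-helix family. The 10 genes were found by symbol among the 24982 genes of the count table: the regulators Pparg, Cebpa, Cebpb, Zfp423 and Ebf2, the lipid droplet coat genes Plin2 and Plin4, and the fatty acid handling genes Fabp4, Lpl and Cd36. All 10 passed the filter on low counts, which left 13125 genes. The ScxKO cells had lost Scx (4 libraries, numbered 2, 3, 4 and 5) and the ScxWT cells had kept it (4 libraries, numbered 2, 3, 5 and 6). All 8 libraries came from C57Bl/6 cells that had received 4HT (4-hydroxytamoxifen), so both groups shared that treatment. The labels do not give the driver of the deletion, the deleted part of Scx, or whether each library had its own animal or culture. The p-values therefore reflect variation among these libraries only, and that variation could be technical.

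Fat cells form in steps. C/EBPβ acts early and induces PPARγ and C/EBPα, which then maintain each other and switch on genes of fatty acid uptake, transport and storage. ZNF423 (mouse Zfp423) and the early B-cell factors mark and prime preadipocytes before that step, and EBF2 is known for its role in brown and beige fat precursors. Stored triglyceride sits in lipid droplets coated by perilipins. Progenitor cells isolated from tendon can be turned into fat cells in culture, and fat deposits are a known feature of diseased tendon.

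Of the 10 genes, 6 were higher and 2 lower in ScxKO cells at an adjusted p under 0.05 (edgeR's quasi-likelihood test, Benjamini-Hochberg adjustment over all genes tested). Among all genes tested 28.5% were called, 14.0% higher and 14.5% lower. The 6 that rose were Plin4, Pparg, Fabp4, Plin2, Cebpb and Lpl, and the 2 that fell were Zfp423 and Ebf2. Cebpa and Cd36 did not pass. Levels are given as CPM, counts scaled to a common library total with TMM factors. Every ScxKO library lay above every ScxWT library for 4 of the genes that rose, and below for both that fell, against 14.8% and 14.3% of all genes tested. The median log2 change of the 10 genes was 0.25 (ScxKO over ScxWT), beside -0.01 for all genes tested, and 1 gene, Zfp423, changed by 2-fold. The 10 genes were picked with earlier results of these data known, so these shares describe them and are no test of the set.

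**Figure D1:**
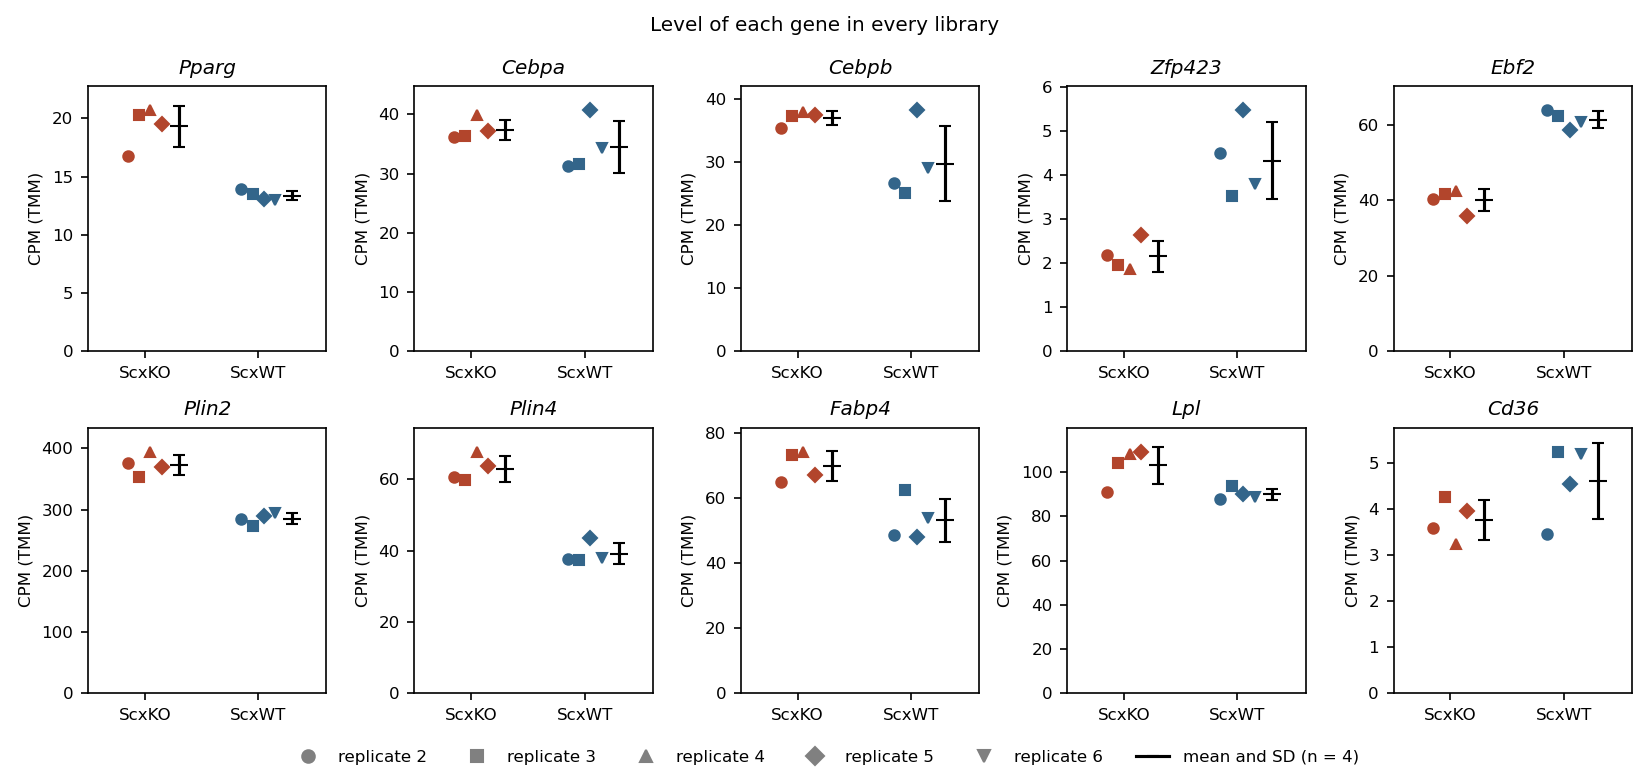
Level of each of the 10 genes in CPM with TMM factors (y axis, from 0) in the 4 ScxKO and 4 ScxWT libraries (x axis); marker shapes give the replicate number and bars the mean ± SD. Pparg, Plin2, Plin4 and Fabp4 are higher in every ScxKO library than in any ScxWT library, Ebf2 and Zfp423 are lower in every one, and Cebpa, Cebpb, Lpl and Cd36 overlap.

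The targeted gene separated the groups, with 1 to 3 Scx counts per library in ScxKO and 132 to 252 in ScxWT cells. Libraries held 17343228 to 22178439 gene counts in ScxKO and 18408278 to 25180790 in ScxWT. Tendon markers were present in both groups, and 7 of 9, Scx among them, were lower in ScxKO. Library 5 of ScxWT stood apart from the other ScxWT libraries on the second principal component, which held 12.9% of the variance. Of 9 macrophage and leukocyte markers, Ptprc, Adgre1, Itgam, Aif1 and Tyrobp had at most 10 counts in any library. Cd68 (log2 change 0.59) and Csf1r (0.70) rose, while Lyz2 (-0.17) and Cd14 (0.08) did not pass. The sum of the 9 markers was 23.2 to 26.8 CPM in ScxKO and 20.1 to 22.9 CPM in ScxWT libraries. Most of it was Cd14 (15.1 CPM in ScxKO and 14.3 CPM in ScxWT on average). The sum of 8 endothelial markers was 49.6 to 54.2 CPM in ScxKO and 68.6 to 86.5 CPM in ScxWT, most of it Tek, which fell (46.6 CPM in ScxKO and 74.3 CPM in ScxWT on average). In that list Kdr rose (3.07 CPM in ScxKO and 2.18 CPM in ScxWT, adjusted p = 0.0272 by edgeR) and Cdh5 did not pass. Pecam1, Tie1 and Erg had at most 10 counts in any library. Vwf and Emcn did not pass the filter on low counts. Vwf was at 0.36 to 0.813 CPM in ScxKO and 0.161 to 0.282 CPM in ScxWT libraries. Emcn had 19 counts in ScxKO 4 and at most 3 in any other library. The sum of 6 mural cell markers was 406 to 430 CPM in ScxKO and 283 to 350 CPM in ScxWT, most of it Cspg4, which rose (365 CPM in ScxKO and 271 CPM in ScxWT on average). In that list Rgs5 (log2 change -0.99) and Notch3 (-0.27) fell, and Mcam did not pass. The sum of 5 Schwann cell markers was 75.7 to 86.7 CPM in ScxKO and 99.2 to 110 CPM in ScxWT, most of it Ncam1; Ncam1 and S100b fell, and Sox10 did not pass. The part of these cell types in the results was not tested. Since RNA was measured in bulk, fewer cells of a type and less RNA per cell cannot be told apart.

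The promoters of 4 members whose groups did not overlap are shown because Scx belongs to a class of factors that bind the E-box, CANNTG. RefSeq (build GRCm38.p6) gave windows from 250 bases before to 50 bases after a transcription start for 7 of the 10 members, 10 windows in all. Fabp4, Lpl and Ebf2 had none. Each window is written 5′ to 3′ on the gene's strand with E-boxes in capitals. Plin2 is at chr4:86670010-86670309 and Plin4 at chr17:56109733-56110032, both on the minus strand. The Pparg window, at start 3 of those listed, is at chr6:115421816-115422115 on the plus strand, and the Zfp423 window, at start 2, is at chr8:87804390-87804689 on the minus strand. These starts were picked after their matches were seen, Pparg start 3 as the one of its gene with the most motif matches and Zfp423 start 2 as the one with the most E-boxes. Of the windows not shown, Pparg start 1 held no E-box, Pparg start 2 held 1 E-box, at -247, and Zfp423 start 1 held 1, at -187.
Plin2: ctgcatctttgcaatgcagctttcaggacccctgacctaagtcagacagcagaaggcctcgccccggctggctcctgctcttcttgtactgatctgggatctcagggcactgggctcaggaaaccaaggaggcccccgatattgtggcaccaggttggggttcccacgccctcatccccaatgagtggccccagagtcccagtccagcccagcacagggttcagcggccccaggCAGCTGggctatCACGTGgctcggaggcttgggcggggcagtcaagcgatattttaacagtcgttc
Plin4: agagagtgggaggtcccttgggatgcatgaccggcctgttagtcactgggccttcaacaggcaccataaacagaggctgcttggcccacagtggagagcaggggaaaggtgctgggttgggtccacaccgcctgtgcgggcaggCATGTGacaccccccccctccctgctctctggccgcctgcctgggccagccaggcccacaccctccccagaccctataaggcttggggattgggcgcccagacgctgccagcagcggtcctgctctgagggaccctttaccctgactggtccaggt
Pparg: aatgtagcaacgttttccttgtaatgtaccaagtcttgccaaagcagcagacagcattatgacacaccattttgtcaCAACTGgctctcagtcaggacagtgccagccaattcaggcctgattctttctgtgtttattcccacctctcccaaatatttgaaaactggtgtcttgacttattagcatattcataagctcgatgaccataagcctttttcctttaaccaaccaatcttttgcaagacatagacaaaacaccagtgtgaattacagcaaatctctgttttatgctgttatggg
Zfp423: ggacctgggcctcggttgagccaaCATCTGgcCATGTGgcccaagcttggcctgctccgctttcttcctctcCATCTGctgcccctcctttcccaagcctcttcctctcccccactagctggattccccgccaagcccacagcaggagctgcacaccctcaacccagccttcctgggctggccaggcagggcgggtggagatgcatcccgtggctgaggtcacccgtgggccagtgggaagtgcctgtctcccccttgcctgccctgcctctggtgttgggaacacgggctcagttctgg
Counted from the start site, Plin2 held CAGCTG at -16 and CACGTG at -4, and Zfp423 held 3 E-boxes, at -226, -218 and -178. An E-box was found in 8 of the 10 windows (80%), and in 72.3% of 32851 mouse promoter windows of that length. The motif reads the same on both strands as written, so each match was counted once. The EBF motif, TCCC and GGGA with any 2 bases between, searched on both strands, occurred at position -237 of Plin4 as TCCCTTGGGA and in 0.904% of all windows. The PPAR motif, 2 copies of AGGTCA with any 1 base between, searched on both strands, was in 0.0396% of all windows and in none of the 10. The C/EBP motif TTGCNNAA, searched on both strands, occurred in 10.8% of all windows and in 2 of the 10, at -215 and -16 of the Pparg window shown and at -131 and 22 of the Zfp423 window at start 1. These are matches of letters, and binding was not measured. No motif of these was found to overlap another in the 4 windows.

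Among the regulators, Pparg rose and Zfp423 and Ebf2 fell. Pparg encodes the nuclear receptor PPARγ, the main switch of fat cell formation. It stood at 16.8, 20.3, 20.7 and 19.5 CPM in ScxKO libraries 2, 3, 4 and 5, and at 13.9, 13.5, 13.1 and 13.0 CPM in ScxWT libraries 2, 3, 5 and 6. Every ScxKO library was above every ScxWT library, with ScxKO 2 the closest. The fold was 1.44, a log2 change of 0.53 ± 0.08 (SE; edgeR, adjusted p = 8.75e-05). Of all genes called higher, 18.1% rose by more. Pparg (ENSMUSG00000000440.12) lies on chromosome 6 from 115360951 to 115490399 of GRCm38, and counts per gene do not separate transcripts from its 3 RefSeq starts.

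Zfp423 encodes a zinc finger protein of preadipocytes. Its counts were 43, 42, 32 and 59 in ScxKO libraries 2, 3, 4 and 5, and 104, 66, 136 and 87 in ScxWT libraries 2, 3, 5 and 6. These low counts came to 2.16 ± 0.353 CPM in ScxKO and 4.33 ± 0.867 CPM in ScxWT (SD, n = 4 each). The groups did not overlap, and ScxWT 5 was the highest. The fold was 0.5, a log2 change of -1.0 ± 0.16 (SE; edgeR, adjusted p = 0.000295), the largest of the 10 in size. Over the alternative settings the log2 change ran from -1.12 to -0.86, the latter without ScxWT 5, so a change of 2-fold depends on the setting. Zfp423 lies on chromosome 8 from 87661810 to 87959595.

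Ebf2 fell with a narrow spread. It stood at 40.4, 41.7, 42.3 and 35.9 CPM in ScxKO libraries 2, 3, 4 and 5, against 63.8, 62.2, 58.5 and 60.6 CPM in ScxWT libraries 2, 3, 5 and 6. The highest ScxKO library was well below the lowest ScxWT library. The fold was 0.653, a log2 change of -0.61 ± 0.06 (SE; edgeR, adjusted p = 1.05e-06). Ebf2 lies on chromosome 14 from 67233292 to 67430918, and 424 bases of its exons are shared with the annotated antisense gene Gm10860. Whether the counting used strand is not given in the sources used here.

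The C/EBP genes were spread more widely among ScxWT than among ScxKO libraries. Cebpb, the early factor, stood at 35.3, 37.2, 37.9 and 37.5 CPM in ScxKO libraries 2, 3, 4 and 5, and at 26.6, 25.1, 38.2 and 29.1 CPM in ScxWT libraries 2, 3, 5 and 6. ScxWT 5 was above all ScxKO libraries, and the other ScxWT libraries were below them. The edgeR estimate was a log2 change of 0.31 ± 0.10 (SE), adjusted p = 0.0293. Cebpb kept its call in 10 of 17 alternatives. Among these, correction for GC content and length gave a log2 change of 0.40 (adjusted p = 1.03e-05, edgeR). The call was lost when ScxKO 3, 4 or 5 or ScxWT 2, 3 or 6 was left out (adjusted p from 0.0562 to 0.0951 by edgeR), and without ScxWT 5 the log2 change was 0.46 with an adjusted p of 1.32e-06. Its single exon shares 312 bases with Tmem189 on the other strand, which stood at 55.3 CPM in ScxKO and 50.5 CPM in ScxWT and did not pass (adjusted p = 0.15, edgeR).

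Cebpa, the partner of PPARγ in mature fat cells, had 36.2, 36.3, 39.9 and 37.1 CPM in ScxKO libraries 2, 3, 4 and 5, and 31.2, 31.6, 40.7 and 34.3 CPM in ScxWT libraries 2, 3, 5 and 6. The groups overlapped, with ScxWT 5 the highest of all 8 at 40.7 CPM. The log2 difference was 0.11 ± 0.08 (SE) and the adjusted p 0.293 by edgeR. Without ScxWT 5 it passed, with a log2 change of 0.21 and an adjusted p of 0.00407, and it also passed after correction for GC content and length (0.18, adjusted p 0.00605).

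Both perilipin genes rose. Plin2 encodes the coat protein found on lipid droplets of most cell types, and Plin4 a perilipin of small droplets in fat and muscle. Plin2 stood at 376, 353, 394 and 369 CPM in ScxKO libraries 2, 3, 4 and 5, and at 285, 274, 289 and 294 CPM in ScxWT libraries 2, 3, 5 and 6. The lowest ScxKO library was above the highest ScxWT library. The fold was 1.31, a log2 change of 0.38 ± 0.04 (SE; edgeR, adjusted p = 6.65e-06). Plin2 lies on chromosome 4 from 86648386 to 86670060.

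Plin4 rose by more. It stood at 60.5, 59.8, 67.6 and 63.6 CPM in ScxKO libraries 2, 3, 4 and 5, and at 37.7, 37.3, 43.5 and 38.0 CPM in ScxWT libraries 2, 3, 5 and 6. The groups were far apart, and ScxWT 5 was the highest of its group. The fold was 1.6, a log2 change of 0.68 ± 0.06 (SE; edgeR, adjusted p = 7.07e-07). Of all genes called higher, 11.6% rose by more. In counts, Plin4 came to 0.161 to 0.172 of Plin2 in ScxKO and 0.129 to 0.151 in ScxWT libraries, 2 ranges that do not overlap and need no scaling. Plin4 lies on chromosome 17 from 56100591 to 56109803 and shares 17 exon bases with Hdgfl2 on the other strand, which did not pass the test (adjusted p = 0.350, edgeR).

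Of the fatty acid handling genes, Fabp4 and Lpl rose and Cd36 did not pass. Fabp4, a cytosolic fatty acid carrier of fat cells, macrophages and endothelium, stood at 65.0, 73.3, 74.2 and 67.1 CPM in ScxKO libraries 2, 3, 4 and 5, and at 48.8, 62.5, 48.0 and 53.8 CPM in ScxWT libraries 2, 3, 5 and 6. The groups did not overlap, but ScxWT 3 came close to ScxKO 2. The fold was 1.32 and the log2 change 0.40 ± 0.07 (SE; edgeR, adjusted p = 0.000869). Macrophage and endothelial markers that could accompany Fabp4 are given above, and their part in its rise was not tested.

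Lpl encodes lipoprotein lipase, the secreted enzyme that frees fatty acids from circulating triglyceride. It stood at 91.0, 104, 108 and 109 CPM in ScxKO libraries 2, 3, 4 and 5, and at 88.0, 93.6, 89.9 and 88.7 CPM in ScxWT libraries 2, 3, 5 and 6. ScxKO 2 lay within the ScxWT range and the other ScxKO libraries above it. The fold was 1.14 and the log2 change 0.19 ± 0.05 (SE; edgeR, adjusted p = 0.0132). It became 0.0504 without ScxKO 4 and 0.0549 without ScxKO 5.

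Cd36, a membrane receptor that takes up long-chain fatty acids, was scarce, with 71, 91, 56 and 88 counts in ScxKO libraries 2, 3, 4 and 5, and 80, 98, 113 and 119 counts in ScxWT libraries 2, 3, 5 and 6. In CPM it averaged 3.77 ± 0.437 in ScxKO and 4.61 ± 0.830 in ScxWT (SD, n = 4 each), and the groups overlapped through ScxWT 2 at 3.46 CPM. The log2 difference was -0.28 ± 0.14 (SE; edgeR, adjusted p = 0.161). Without ScxWT 2 it passed, with a log2 change of -0.39 and an adjusted p of 0.0400.

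**Figure D2:**
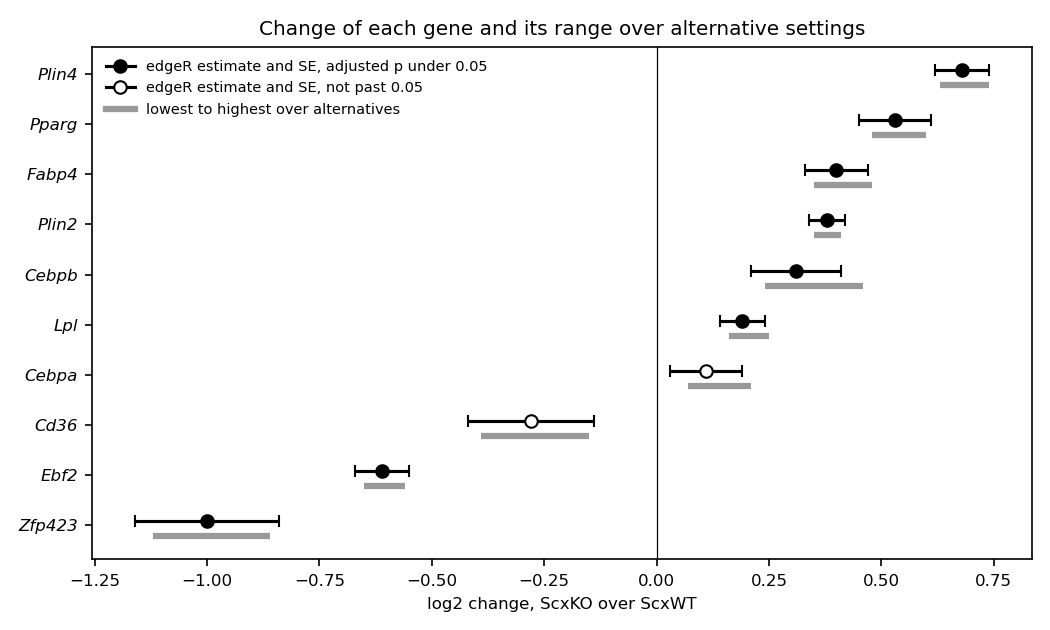
Log2 change of ScxKO over ScxWT (x axis) for the 10 genes (y axis, from the largest rise to the largest fall). Points and whiskers give the edgeR estimate ± SE, filled where the adjusted p is under 0.05, and grey bars the lowest to highest estimate over the alternative settings. No bar crosses 0, and the estimates run from -1.0 for Zfp423 to 0.68 for Plin4.

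Libraries differed within groups in ways that several members shared. ScxKO 2 was the lowest ScxKO library for 5 of the 10 genes (Pparg, Cebpa, Cebpb, Fabp4 and Lpl), and ScxKO 4 the highest for 7. ScxWT 5 was the highest ScxWT library for Cebpa, Cebpb, Plin4 and Zfp423. In the comparison the authors deposited, 4239 of 14511 genes had an adjusted p under 0.05, in either direction. Of the 10 genes, 7 were higher and 2 lower at that threshold. The additional gene there was Cebpa, with a log2 change of 0.18 ± 0.06 (SE) and an adjusted p of 0.0203 in the authors' deposited table.

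Levels per kilobase of the longest protein-coding transcript put the genes in an order that differed between groups in the place of Ebf2 relative to Plin4 and Pparg. In ScxKO cells Plin2 came first at 198 ± 9.08 CPM per kb (SD, n = 4), then Fabp4 at 78.0, Lpl at 25.0, Cebpb at 24.6, Cebpa at 14.2, Plin4 at 10.9, Pparg at 9.09, Ebf2 at 7.70, Cd36 at 1.11 and Zfp423 at 0.441 CPM per kb. Lpl and Cebpb overlapped in level, as did Pparg and Ebf2. In ScxWT cells Ebf2, at 11.8 CPM per kb, came before Plin4 at 6.80 and Pparg at 6.29 CPM per kb, and it overlapped Cebpa. Levels depend on the length used. By the union of all annotated exons, Plin2 was at 106 CPM per kb in ScxKO and 81.3 in ScxWT, and Pparg at 6.54 and 4.53. That union spans the whole gene for Fabp4, which was at 15.6 CPM per kb in ScxKO and 11.9 in ScxWT. Lpl was at 9.83 in ScxKO and 8.59 in ScxWT by the same union. In ScxKO cells that puts Fabp4 at place 3, after Cebpb, and Lpl at place 6, after Plin4.

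Relatives of the members were read from the same fit and are named here after their values were seen. Among perilipins per kb, Plin2 made up 79.6% in ScxKO and 78.2% in ScxWT, and Plin3, the other widely expressed member, 15.7% and 17.9% (ScxKO first). Plin3 did not pass (log2 difference 0.17, adjusted p = 0.0592, edgeR). Plin1 of mature fat cells was at 1.71 ± 0.398 CPM in ScxKO and 2.16 ± 0.735 CPM in ScxWT (SD, n = 4 each), and Plin5 did not pass the filter. Fabp3, the fatty acid binding protein of heart and muscle, rose by more than Fabp4, with a log2 change of 1.0 ± 0.08 (SE; edgeR, adjusted p = 3.25e-07). Fabp5 fell, with a log2 change of -0.14 ± 0.04 (SE) and an adjusted p of 0.0227 by edgeR. Among Fabp3, Fabp4 and Fabp5 per kb, Fabp5 made up the largest share, 48.5% in ScxKO and 60.3% in ScxWT. The other early B-cell factor genes, Ebf1 and Ebf3, fell as Ebf2 did, with log2 changes of -0.32 ± 0.04 and -0.50 ± 0.05 (SE). Cebpd did not pass (log2 difference -0.16, adjusted p = 0.290, edgeR).

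Other genes of adipogenesis and lipid storage were read from 8 lists with 114 genes besides the members, of which 99 were tested. Of these 18.2% were higher and 24.2% lower, beside 14.0% and 14.5% of all genes tested. The median log2 change was -0.05. The lists differed in their direction, and none was tested as a set.

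Among adipogenic factors the early B-cell factors fell. Of 21 tested factors besides the members 7 fell and 2 rose, with a median log2 change of -0.13. Ebf3 stood at 35.6 ± 1.96 CPM in ScxKO and 50.2 ± 2.21 CPM in ScxWT, and Ebf1 at 98.0 ± 3.92 and 123 ± 2.89 CPM (SD, n = 4 each, ScxKO first). The signal transducer gene Stat5b had a log2 change of -0.28 ± 0.04 (SE) and the Krüppel-like factor gene Klf4 of -0.34 ± 0.05. The 2 that rose, Klf15 and the coactivator gene Ppargc1a, were scarce, at 4.37 and 0.790 CPM in ScxKO against 2.60 and 0.307 CPM in ScxWT. They are named here after their values were seen, and Klf15 was no longer called without ScxKO 5. Of 18 tested inhibitors of adipogenesis 6 fell and 3 rose (median -0.11). Wnt10b, a Wnt ligand that blocks fat cell formation, had 2.09 ± 0.494 CPM in ScxKO and 4.75 ± 0.634 CPM in ScxWT. Zfp521, a zinc finger antagonist of EBF1 and of Zfp423, changed by -0.44 ± 0.06 (SE) and Klf2 by -0.81 ± 0.09, while Ddit3, which encodes the stress factor CHOP, rose by 0.71 ± 0.06.

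Most lipid droplet and triglyceride synthesis genes were not called, as was the case for all genes tested, of which 28.5% were called. Of 15 tested droplet genes besides the members 3 rose and 1 fell. Abhd5, the coactivator of adipose triglyceride lipase, rose by 0.28 ± 0.04 on the log2 scale, the lipase gene Pnpla2 by 0.21 ± 0.06 and Aup1 by 0.16 ± 0.06 (SE). Mgll, the monoacylglycerol lipase gene, changed by -0.38 ± 0.11 (adjusted p = 0.0161, edgeR), and its adjusted p was 0.0517 without ScxKO 3. The count that rose was 1 without ScxKO 2, 4 or 5, and without ScxWT 2, 3 or 6. Of 13 triglyceride synthesis genes 2 rose and 0 fell by edgeR, with 1 lower at an unadjusted p under 0.05 and 0 lower by DESeq2 or limma-voom. Those were the phosphatidate phosphatase genes Lpin1, at 161 ± 8.94 CPM in ScxKO and 106 ± 3.40 CPM in ScxWT, and Lpin3, at 45.3 ± 1.23 and 36.8 ± 2.89 CPM (SD, n = 4 each, ScxKO first). Without ScxWT 3, Gpam of that list was called lower. With upper-quartile scaling, and after correction for GC content and length, 1 gene of the list was also called lower.

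Genes of fatty acid uptake and binding went both ways. Of 12 tested besides the members 5 rose and 3 fell. Fabp3 had 27.7 ± 1.99 CPM in ScxKO and 13.8 ± 1.46 CPM in ScxWT. The fatty acid transporter gene Slc27a1 had 56.5 ± 4.06 and 34.2 ± 5.44 CPM, and the acyl-CoA synthetase gene Acsl3 102 ± 5.11 and 70.6 ± 5.66 CPM (SD, n = 4 each, ScxKO first). Angptl4, a secreted inhibitor of lipoprotein lipase and a PPAR target, fell. It stood at 79.0 ± 3.88 CPM in ScxKO and 114 ± 9.31 CPM in ScxWT, a log2 change of -0.53 ± 0.06 (SE). Lpl counts were 1.09 to 1.43 times Angptl4 counts in ScxKO libraries and 0.709 to 0.887 times in ScxWT libraries.

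Known PPAR target genes went both ways. Of 12 tested besides the members 2 rose, among them Fabp3, and 3 fell, among them Angptl4 and Ech1 (-0.29 ± 0.05, SE). The median log2 change was -0.03, and the other 7 did not pass. Of the 5 members in that list 4 rose, and Cd36 did not pass.

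Markers of mature fat cells were scarce in both groups. Of 15 markers 7 passed the filter, and 0 of those were called by edgeR; at an unadjusted p under 0.05 the count was 1 (Adipoq, lower), and DESeq2 and limma-voom called 0 of them. Adipoq was called lower by edgeR without ScxKO 2 (log2 change -0.55, adjusted p 0.0385), without ScxWT 2 (-0.53, adjusted p 0.0345) and after correction for GC content and length (-0.45, adjusted p 0.0388), and Slc2a4, which the filter removes, was called lower with no filter. Adipoq, the adiponectin gene, had 5.19 ± 1.35 CPM in ScxKO and 6.91 ± 1.48 CPM in ScxWT (adjusted p = 0.100, edgeR), and Lep and Ucp1 had no counts in any library. The sum of 7 adipocyte markers was 8.65 to 13.0 CPM in ScxKO and 9.44 to 16.7 CPM in ScxWT, 2 ranges that overlap. Of 12 progenitor and preadipocyte markers 5 fell, 2 rose and 5 did not pass. Pdgfra, the receptor gene used to mark adipogenic progenitors, had 78.3 ± 6.62 CPM in ScxKO and 113 ± 1.90 CPM in ScxWT. Pi16, a marker of fibroblast progenitors, changed by -2.35 ± 0.23, Wnt2 by -1.27 ± 0.16 and Cd55 by -0.46 ± 0.05 (SE). The 2 that rose, Pdgfrb and F3, are named here after their values were seen. Pdgfrb averaged 503 CPM in ScxKO and 428 CPM in ScxWT, and F3 405 CPM in ScxKO and 374 CPM in ScxWT. Their log2 changes were 0.23 ± 0.05 and 0.12 ± 0.04 (SE). The count that rose was 1 without ScxKO 2, 3 or 5, and without ScxWT 2.

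**Figure D3:**
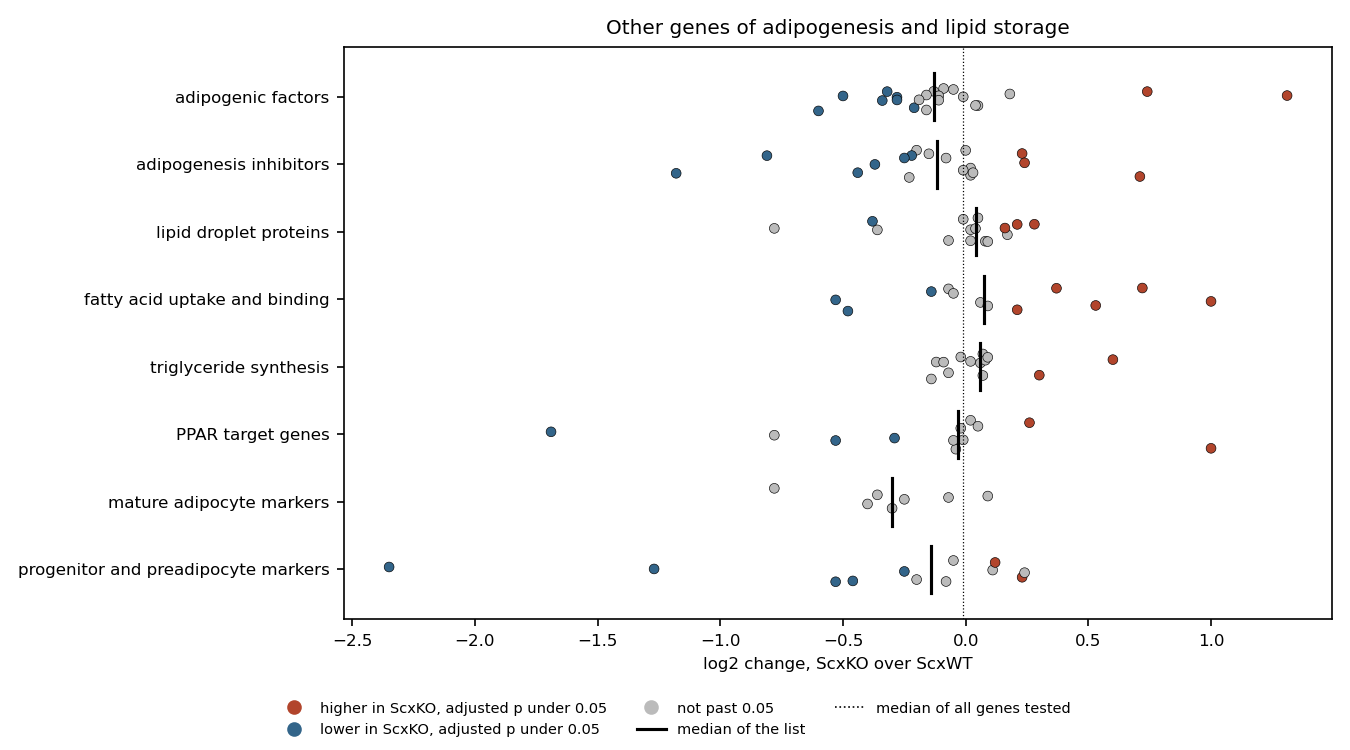
Log2 change of ScxKO over ScxWT (x axis) for the tested genes of each list besides the 10 members (y axis, one row per list); red points were higher and blue points lower at an adjusted p under 0.05, grey points did not pass, black bars give the list median and the dotted line the median of all genes tested (-0.01). Adipogenic factors and inhibitors have medians of -0.13 and -0.11, and no mature adipocyte marker passed in this fit.

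**Figure D4:**
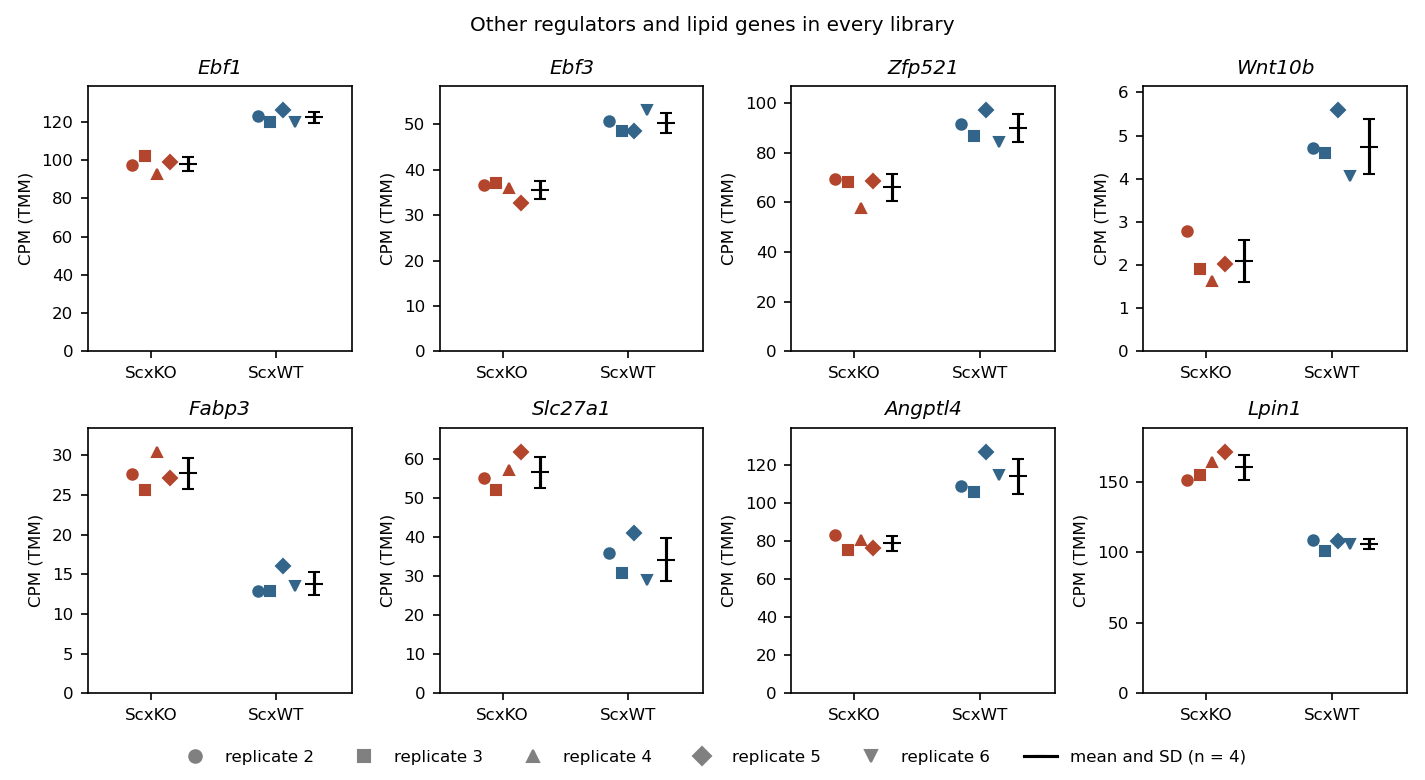
Level in CPM with TMM factors (y axis, from 0) of 8 other genes in the 4 ScxKO and 4 ScxWT libraries (x axis), picked for display after their values were seen; marker shapes give the replicate number and bars the mean ± SD. Ebf1, Ebf3, Zfp521, Wnt10b and Angptl4 are lower, and Fabp3, Slc27a1 and Lpin1 higher, in every ScxKO library than in any ScxWT library.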

How the data were processed

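RNA of 8 libraries of cultured tail tendon fibroblasts was sequenced. The authors deposited 1 table of raw gene counts and 1 table of their own comparison. The tools named in the submitters' processing notes are FastQC, STAR and DESeq2, and the build is mm10. Neither the counting tool nor its annotation or strand setting is stated there. The authors' deposited comparison also holds a mean normalized signal per gene and a test statistic, a score, per the file headers. From the authors' deposited table the log2 fold changes, their errors and adjusted p-values were read; its 2 columns of group means were not used. Rows naming no gene were left out: reads with no feature made up 7.44% to 8.26% in ScxKO and 7.52% to 8.67% in ScxWT libraries.

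The counts were tested with edgeR 4.0.16 (R 4.3.3; TMM factors, filterByExpr, quasi-likelihood test, ScxKO over ScxWT, no covariate), with Benjamini-Hochberg adjustment over 13125 genes and a threshold of 0.05. The scripts were tested on simulated data. The alternatives tried were other tools (limma-voom 3.58.1 and DESeq2 1.42.0), other scaling (upper-quartile, RLE), other filters (none, or at least 5 CPM in 4 libraries), a replicate block, the shared numbers 2, 3 and 5 only, leaving out each library, and a correction for GC content and length. Levels per kb used the longest protein-coding transcript of GENCODE M21 in place of the exon union, a choice made after seeing the data; 24490 of 24982 symbols matched that annotation. Besides the members, the text names up to 4 called genes of each list, those with the smallest p, and says where others were chosen after their values were seen; 1 gene that this rule names is not reported here but stays in every count of called genes. The members and lists were chosen with earlier results of these data known.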

Additional observations from a re-analysis of the deposited data

Results flagged for a closer look

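In 5 of 66 groups of 4 libraries, 1 library lay far from the other 3, judged by its gap to the nearest against the whole range; chance alone gives about 1 in 20. For Plin4, ScxWT 5 stood at 43.5 CPM, above the other ScxWT libraries at 37.3 to 38.0 CPM, and still below every ScxKO library. ScxWT 5 was also high for Klf4, at 349 CPM beside 294 to 303 CPM for the rest of its group. ScxKO 3 was low for Mgll, at 9.31 CPM where the other ScxKO libraries had 12.5 to 13.1 CPM, and high for Wnt2, at 3.18 CPM against 2.16 to 2.33 CPM. ScxKO 4 was low for Zfp521, at 57.8 CPM beside 68.4 to 69.6 CPM for the rest of its group.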

How the results depend on the processing

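Pparg, Fabp4, Plin2, Plin4 and Ebf2 kept direction and call in all 17 alternatives, and Zfp423 in the 16 that gave it a value; no member changed direction. With numbers 2, 3 and 5 only, Cebpb (0.29, adjusted p 0.144) and Lpl (0.17, adjusted p 0.100) lost their calls by edgeR. In that setting 4 members were higher and 2 lower, beside 1289 higher and 1239 lower of all genes. Leaving out 1 library at a time gave log2 changes of 0.24 to 0.46 for Cebpb and 0.17 to 0.25 for Lpl. For Cebpa they were 0.07 to 0.21, and for Cd36 -0.39 to -0.21. Members called higher then numbered 4 to 7, beside 1447 to 2409 of all genes, and the cause was not tested. Correction for GC content and length called Cebpa higher (0.18, adjusted p 0.00605). The filter of 5 CPM removed Zfp423 and Cd36, which left 1 member lower. Aup1 kept its call in 7 of 17 alternatives and Pnpla2 in 10.

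The labels do not say whether the replicate numbers pair libraries. Deviations from the group mean correlated at -0.0602, 0.156 and 0.0568 for same-numbered libraries 2, 3 and 5. Other pairs ran from -0.227 to 0.143, so the pair numbered 3 was the highest of all. With deviations taken from means of only 4 libraries, these correlations cannot decide whether the libraries are paired. With a replicate block 6 members were higher and 2 lower (Cebpb 0.30, adjusted p 0.00309), and 1561 genes were higher and 1676 lower in all; ScxKO 2 correlated best with ScxWT 5. Zfp423 and Cd36 rest on at most 136 counts in a library, which limits their precision.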

Other observations

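Ratios of counts within a library need no scaling, and the pairs given here were chosen after their values were seen. Pparg counts were 0.414 to 0.543 times Ebf2 counts in ScxKO libraries and 0.214 to 0.224 times in ScxWT libraries. They were 7.36 to 11.1 times Zfp423 counts in ScxKO and 2.39 to 3.82 times in ScxWT. Ebf2 came to 0.363 to 0.455 of Ebf1 in ScxKO and 0.463 to 0.518 in ScxWT, while its ratios to Ebf3 overlapped between groups. Fabp3 came to 0.397 ± 0.0334 of Fabp4 in ScxKO and 0.264 ± 0.0524 in ScxWT (SD, n = 4 each). Among 40 neighbouring genes, 2 on each side of every member, 5 were higher and 9 lower in ScxKO, beside 14.0% higher and 14.5% lower among all genes tested.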
